A study of Danio rerio with 14 samples.

Results

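The genes described here were read out strongly in ZF4 cells, a fibroblastic cell line of the zebrafish, and at or near background in every early embryo sample of the same series. They were chosen on the deposited log2 expression values: both ZF4 arrays at 9 or more and all 12 embryo arrays at 5.8 or less, on probe sets that carry a single gene symbol. Symbols that start with hox, slc, col, itg, lox, timp or mmp were left out. The rule gave 72 probe sets of 69 genes, out of 15502 probe sets and 8793 named genes on the array. The values of ZF4 against embryos chose these genes, so that contrast is given for them as a description, without a test.

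Expression was measured on Affymetrix zebrafish arrays in 7 groups of 2 arrays each. The embryo groups are whole Ekkwill embryos, collected 4, 6 or 9 hours after fertilization (hpf), either untreated or kept in water with retinoic acid (RA) from the 2-cell stage until harvest. The remaining group is ZF4, 1 cell line that stands for no tissue of the embryo and for which the labels give no passage or culture condition. Whether same-group arrays stem from separate clutches or cultures is not in the labels, and the p-values therefore cover the spread between these samples alone, which may be technical.

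Fibroblasts in culture spread on their substrate through actin stress fibres, secrete matrix, and answer serum growth factors through immediate early transcription factors. Class I MHC molecules display peptides cut by the proteasome at the cell surface, and interferon raises both the display machinery and the inducible proteasome subunits. An embryo of a few hours has an enveloping epithelium over loosely packed blastoderm cells, and its muscle, skeleton and immune cells have not yet differentiated.

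The 14 arrays had medians of 6.11 to 6.31 (log2), and the 2 arrays of each group had correlations of 0.929 to 0.952. A background level of 5.302 was taken as the 95th percentile of 17 control probe sets that match no zebrafish gene. Values at or below it are not well above background and have no order among themselves. The line was checked against 16 measured fibroblast markers, of which 8 were above every embryo array. The share of all probe sets in that order was not counted, so no excess is read from the 8. The members prrx1a, prrx1b and postnb are among the 8, but the rule fixed their order in advance, so they add nothing to the check. The collagen genes col1a1a (11.59 and 11.53 on the ZF4 arrays), col1a2 (11.70 and 11.57) and col5a2a (10.99 and 10.94), the matrix protein gene sparc (11.66 and 11.61) and the caveolin gene cav1 (9.47 and 9.38) were above every embryo array. Of these, col1a2 and col5a2a also met both levels of the rule and were left out by their symbols alone. Fibronectin (fn1a) was bright in ZF4 (10.61 and 10.60) and on the embryo arrays (7.78 to 11.04). The surface marker thy1 was not well above background in ZF4 (4.75 and 3.48), against 7.71 to 12.73 in embryos, and tgfbi (3.25 and 3.48) was not either. The intermediate filament gene vim (5.32 and 6.06, embryos up to 6.95), the proteoglycan gene dcn (5.40 and 5.56, up to 5.76) and the mesenchymal factor twist1a (6.67 and 6.55, up to 6.69) lay within the embryo range. The factor gene snai2 (7.42 and 7.22, up to 10.79) and fn1b (5.46 and 4.84, up to 9.01) lay within it too. Of 20 genes of blood, endothelium and macrophages, 0 were above background on both ZF4 arrays, and of 19 neuronal and glial genes 2 were. On both untreated 9 hpf arrays 2 of the 20 and 3 of the 19 were, so low counts are not particular to ZF4.

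In all, 136 probe sets met both levels. Of these, 50 carried no symbol, 2 carried several, and 12 probe sets of 10 genes were left out by their symbols. The letters col also took out colec12, a collectin and not a collagen. Of the 69 genes, cygb1, postnb and tnfaip6 met the rule on 2 probe sets each, and 3 others carry code names alone. The means of the ZF4 arrays ran from 9.09 to 12.3 with a median of 9.997. Because most embryo values were at background, each fold is a lower bound. It sets the mean of the ZF4 arrays against the mean of the 12 embryo arrays, each embryo value first raised to the background level. These bounds ran from 13.7-fold to 121-fold with a median of 25.7-fold. In these bulk samples, fewer cells that express a gene and less of its RNA per cell cannot be told apart.

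**Figure D1:**
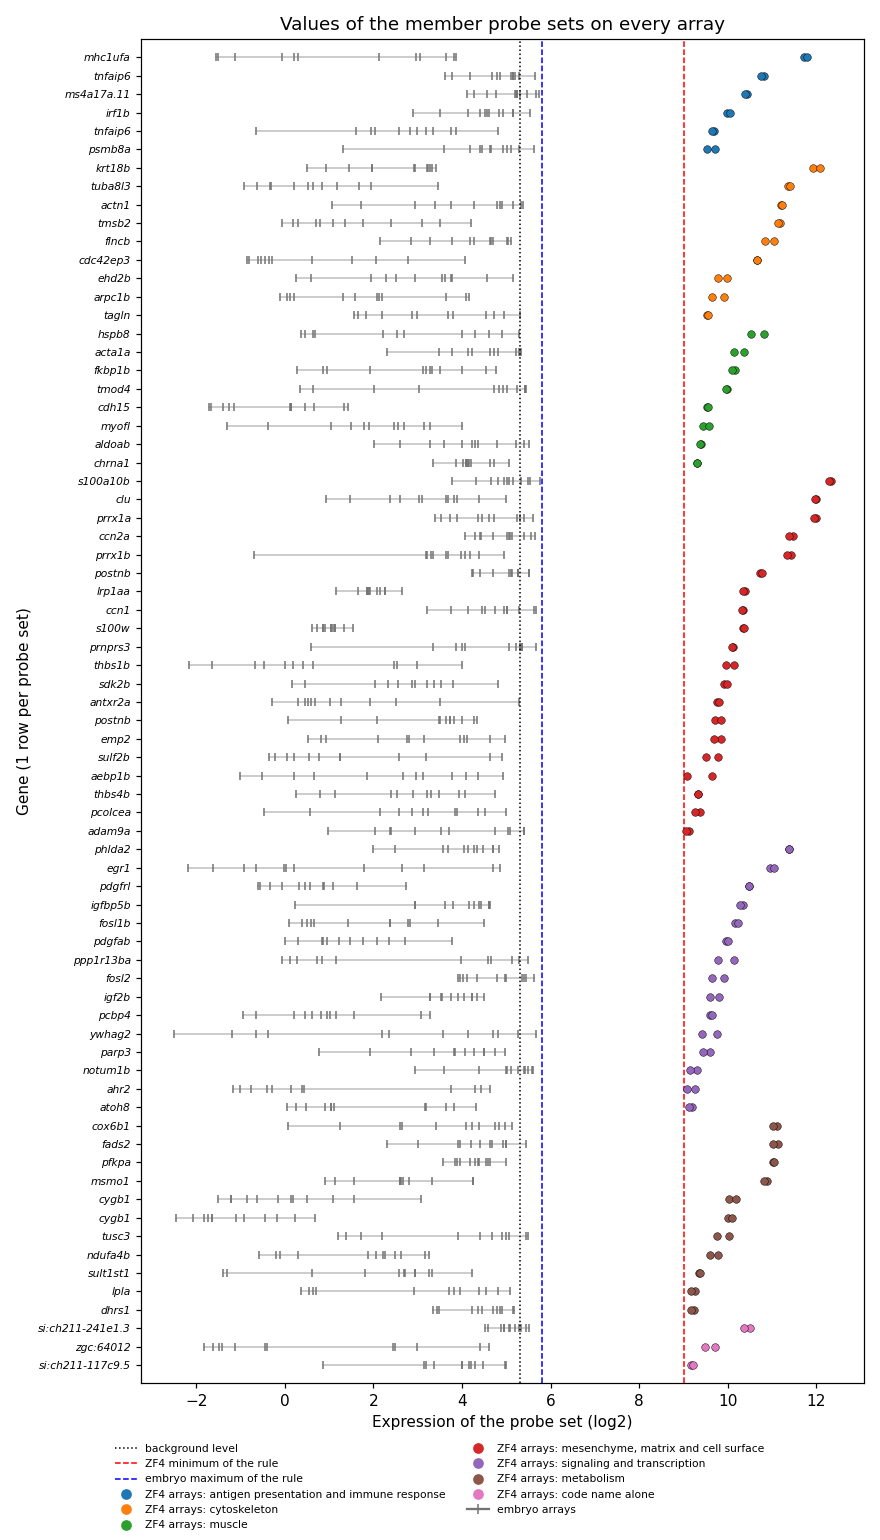
Each row is 1 of the 72 probe sets, grouped by role, with its log2 expression on the x axis: coloured points are the 2 ZF4 arrays, grey ticks the 12 embryo arrays. The ZF4 points lie at 9 or above and the embryo ticks at 5.8 or below, as the rule sets, and most ticks lie left of the dotted background level at 5.302.

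Just inside the ZF4 limit were adam9a (9.13 and 9.05), aebp1b (9.64 and 9.07), ahr2 (9.27 and 9.07), atoh8 (9.19 and 9.12) and notum1b (9.30 and 9.14). Among those just outside it were the Runx partner cbfb (8.99 and 9.04), samd11 (8.98 and 8.99), kctd12.2 (9.29 and 8.82) and ace (8.80 and 8.97). On the embryo side, the highest embryo values inside the limit were those of s100a10b (5.77), ms4a17a.11 (5.73), prnprs3 (5.67), ywhag2 (5.66) and ccn1 (5.66). Just above it were cdon (5.82), the cathepsin gene ctsk (5.86), the guanylate-binding protein gene gbp1 (5.88), pmp22b (5.90) and the galectin gene lgals3a (5.90).

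The antigen presentation and immune genes numbered 5. The class I MHC gene mhc1ufa, whose product displays peptides to T cells, read 11.71 and 11.79 in ZF4 and from -1.54 to 3.86 in embryos (median 1.21), so that ZF4 was at least 87.3-fold higher. The gene tnfaip6 encodes a secreted hyaluronan-binding protein that inflammatory cytokines induce in mammals. Its brighter probe set read 10.82 and 10.74 in ZF4 against 3.62 to 5.65 in embryos (median 4.98), at least 43.6-fold, and its second probe set gave at least 20.5-fold. A gene of the membrane-spanning MS4A family, ms4a17a.11, read 10.43 and 10.39 against 4.12 to 5.73 (median 5.23), at least 32.7-fold. The interferon regulatory factor irf1b read 9.97 and 10.04 against 2.89 to 5.54 (median 4.58), at least 25.7-fold. The inducible proteasome subunit psmb8a read 9.71 and 9.52 against 1.31 to 5.62 (median 4.64), at least 19.5-fold.

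The rest of the same machinery was looked up in 15 relatives that are not members: class I heavy chains, the light chain, tapasin and proteasome subunits. They were chosen after the members were known, and their levels are a description. In 13 of the 15 both ZF4 arrays were above every embryo array. The share of all probe sets in that order was not counted, so no excess is read from this or from the relatives below. The light chain b2m read 11.49 and 11.64 in ZF4 and 4.96 to 8.21 in embryos, and the class I gene mhc1zba 10.95 and 11.09 against 5.21 to 6.68. The inducible subunits and their relatives psmb9a (7.84 and 7.63, embryos up to 4.60) and psmb12 (8.96 and 9.01, embryos up to 5.99) showed the same order, and so did the proteasome activator genes psme1 (10.32 and 10.30, embryos up to 7.41) and psme2 (10.20 and 10.11, embryos up to 6.54). The constitutive catalytic subunits psmb5, psmb6 and psmb7 were above background on all 12 embryo arrays, whereas psmb8a was above it on 1. The inducible subunits and their relatives did not all follow psmb8a. In embryos psmb10 was above background on all 12 arrays (5.57 to 7.70) and psmb12 on 9, while psmb9a and psmb13a were on 0. The other class I genes measured split: mhc1uda read 6.61 and 6.50, while mhc1uka (2.50 and 1.09) and mhc1zca (1.39 and 1.78) were not well above background in ZF4. Of 5 other interferon regulatory factors 2 were above every embryo array, irf7 (8.88 and 8.89) and irf9 (7.22 and 6.997). The other irf1 gene, irf1a, was not well above background on either ZF4 array (4.02 and 3.09). Neither was irf5 (3.21 and 0.91, embryos 4.61 to 9.16), and irf2a (6.00 and 5.98) lay within the embryo range (5.89 to 9.27).

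**Figure D2:**
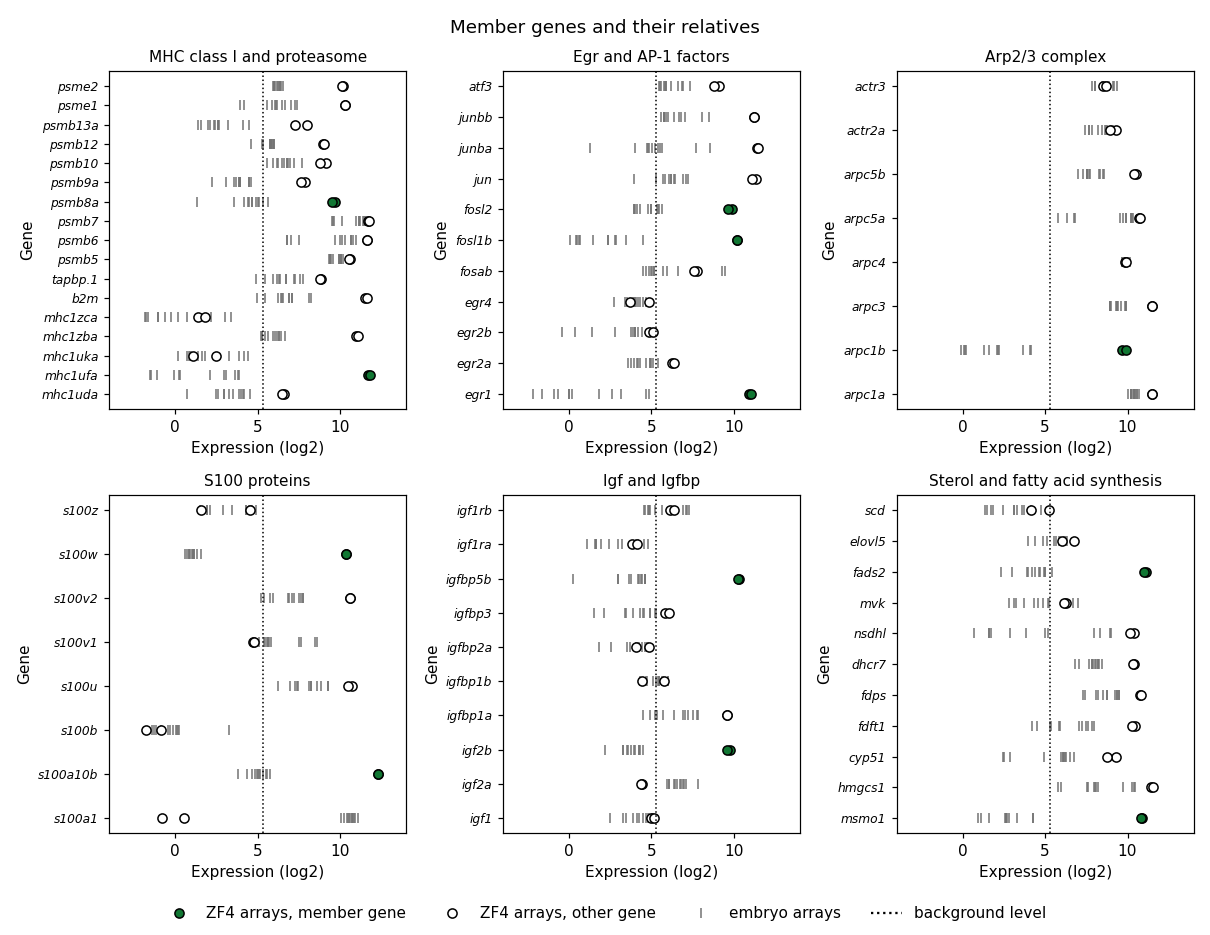
Log2 expression of member genes (filled points, ZF4 arrays) and their relatives (open points, ZF4 arrays) on the x axis, with the 12 embryo arrays as ticks and the background level dotted. Relatives in the panel of MHC and proteasome genes mostly lie right of the embryo ticks. In the Arp2/3 panel the embryo ticks of the relatives lie right of the background level, and 4 of 7 relatives lie right of their ticks. The points of s100a1 and igf2a lie left of their ticks.

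The cytoskeleton accounts for 9 members. The type I keratin gene krt18b read 11.92 and 12.07 in ZF4 and 0.50 to 3.42 in embryos (median 2.92), at least 103-fold. The alpha-tubulin gene tuba8l3 read 11.36 and 11.41 against -0.92 to 3.46 (median 0.57), at least 67.9-fold. The actin crosslinker alpha-actinin, actn1, read 11.20 and 11.23 against 1.07 to 5.38 (median 4.53), at least 59.9-fold. The beta-thymosin gene tmsb2, whose product holds actin monomers, read 11.17 and 11.13 against -0.06 to 4.21 (median 1.23), at least 57.7-fold. Filamin C (flncb), which joins actin to membranes and to the Z disc of muscle, read 10.84 and 11.03 against 2.14 to 5.11 (median 4.46), at least 49.6-fold. The Cdc42 effector gene cdc42ep3 read 10.66 and 10.65 against -0.85 to 4.07 (median -0.33), at least 41.0-fold. The remaining 3 were the membrane-shaping ATPase ehd2b (at least 23.8-fold), the Arp2/3 subunit arpc1b (22.2-fold) and transgelin (tagln), an actin-binding protein of smooth muscle (19-fold).

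Several relatives of these genes were bright in embryos as well as in ZF4. In the Arp2/3 complex, which nucleates branched actin, all 7 other subunit genes were above background on all 12 embryo arrays. In 4 of the 7 both ZF4 arrays were above every embryo array. Among them was arpc1a, the other gene for the subunit that arpc1b encodes, at 11.48 and 11.47 in ZF4 and 10.01 to 10.67 in embryos. Likewise krt18a.1 read 12.08 and 12.03 in ZF4 and 7.26 to 12.54 in embryos, and its keratin partner krt8 12.40 and 12.41 against 5.83 to 12.93. Filamin A (flna, 11.54 and 11.52) and thymosin tmsb4x (12.46 and 12.38) were above every embryo array, yet well above background on all 12 (up to 9.90 and 12.21). The thymosin gene tmsb1 had the reverse order, with 4.28 and 1.49 in ZF4 and up to 11.81 in embryos. The muscle alpha-actinins actn2b (4.92 and 5.22) and actn3b (1.02 and -0.17) were not well above background in ZF4, unlike actn1. Of 5 caveolar and Ehd relatives of ehd2b, cav1 alone was above every embryo array. The caveolar genes cav2 (2.33 and 0.06) and cavin1b (2.6 and 1.49) were not well above background in ZF4.

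Muscle accounts for 8 members. The small heat shock protein gene hspb8 read 10.81 and 10.52 in ZF4 against 0.36 to 5.29 in embryos (median 2.61), at least 41.2-fold. Skeletal alpha-actin, acta1a, read 10.14 and 10.36 against 2.31 to 5.34 (median 4.67), at least 30.8-fold. The gene fkbp1b, whose product binds the calcium release channel, read 10.16 and 10.09 against 0.28 to 4.76 (median 3.22), at least 28.4-fold. The thin-filament capping protein gene tmod4 read 9.98 and 9.97 against 0.34 to 5.44 (median 4.87), at least 24.9-fold. M-cadherin (cdh15), the adhesion molecule of myoblasts and satellite cells, read 9.53 and 9.54 against -1.71 to 1.44 (median 0.13), at least 18.8-fold. The membrane-repair protein gene myofl, of the myoferlin kind, read 9.44 and 9.57 against -1.30 to 4.00 (median 2.19), at least 18.4-fold. The aldolase gene aldoab (9.40 and 9.38) and chrna1 (9.30 and 9.31), the alpha subunit of the muscle acetylcholine receptor, had bounds of 16.7-fold and 16.0-fold.

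The muscle program outside these genes was measured for 49 other genes of a muscle list. That list held 51 measured genes, of which only 2 are members, so it and the role above were not defined alike. Of the 49, 26 were not well above background on either ZF4 array and 21 were above it on both. On both untreated 9 hpf arrays 12 of the 49 were above it. These shares were not counted over all probe sets. In ZF4 against untreated 9 hpf embryos 8 of the 49 passed the limma test as higher (adjusted p under 0.05) and 4 as lower, where 21.6% and 23.8% of all probe sets did. Those shares include probe sets without a symbol, whereas a list gene was read on its probe set with the highest mean. Of the 4 lower genes, 1 had both groups at or below background. The count of higher genes was 3 and 4 without the first and the second ZF4 array, and 5 without the first untreated 9 hpf array. Their median change was 0.44, against -0.08 over all probe sets. Against 6 hpf 11 were higher and 4 lower, and against 4 hpf 16 and 4. Higher in ZF4 were the creatine kinase gene ckma by 2.06 ± 0.47 (log2, SE; 7.65 and 7.35 in ZF4, 5.41 and 5.47 at 9 hpf; limma adjusted p = 0.00353) and mef2d, a transcription factor of muscle genes, by 1.90 ± 0.49 (8.72 and 8.34 against 7.10 and 6.15; limma adjusted p = 0.00686). The myocyte factor mef2ca was at least 2.37-fold higher (limma adjusted p = 0.0349). The call of mef2ca was lost when any of the 4 arrays compared was left out, and that of mef2d without the first ZF4 or the second untreated 9 hpf array. Lower in ZF4 were hspb1, a relative of hspb8, by 6.67 ± 0.77 (6.37 and 5.90 against 12.72 and 12.89; limma adjusted p = 2.78e-05), cardiac actin actc1a by 2.36 ± 0.23 (limma adjusted p = 6.79e-06) and the calcium store protein casq2 by 1.17 ± 0.29 (limma adjusted p = 0.00538). The following were singled out after their values were seen. Of the 4 small heat shock relatives of hspb8, hspb6 alone was above every embryo array (7.94 and 8.14 in ZF4, embryos up to 4.52). The myosin heavy chain smyhc1 (2.58 and 0.11), the light chain myl1 (1.78 and 0.91) and nebulin (neb, 2.71 and 3.16), all of the sarcomere, were not well above background in ZF4, and neither was myoglobin (mb, 3.73 and 3.79), which binds oxygen. The cardiac actins actc1a (8.25 and 8.48) and actc1b (7.61 and 7.68) were above it, as the members acta1a and tmod4 were. The myogenic factor myod1 read 8.93 and 8.88 in ZF4, 6.72 and 6.01 in untreated 9 hpf embryos, and missed the threshold (limma adjusted p = 0.112). Myogenin (myog), which acts later, was not well above background in ZF4 (4.50 and 4.73). The receptor kinase musk, which gathers acetylcholine receptors at the synapse, read 9.23 and 9.18 in ZF4 and up to 7.25 in embryos, while the receptor subunit chrne (4.26 and 4.37) and the clustering protein rapsn (4.24 and 4.15) were not well above background.

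The genes of mesenchyme, matrix and cell surface were the most numerous role, with 19 members. The annexin partner s100a10b read 12.32 and 12.28 in ZF4 against 3.78 to 5.77 in embryos (median 5.04), at least 121-fold, the highest bound among the members. The paired-type homeobox gene prrx1a, a factor of limb and skeletal mesenchyme, read 11.99 and 11.94 against 3.40 to 5.60 (median 4.53), at least 99.1-fold. Its paralog prrx1b read 11.43 and 11.34 against -0.70 to 4.96 (median 3.66), at least 67.8-fold, so both copies met the rule. Clusterin (clu), a secreted chaperone, read 11.98 and 11.97 against 0.93 to 4.999 (median 3.37), at least 102-fold. The matricellular gene ccn2a, a target of TGF-beta and Yap signaling, read 11.46 and 11.39 against 4.08 to 5.64 (median 5.04), at least 66.9-fold. Periostin (postnb), a matrix protein of periosteum and fin, read 10.73 and 10.76 against 4.22 to 5.52 (median 5.11), at least 42.4-fold. Of these 6, s100a10b was above background on 4 embryo arrays, prrx1a and ccn2a on 3 each and postnb on 2, and prrx1b and clu were above it on 0.

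Of the other members of this role, s100w read 10.33 and 10.36 (at least 33.0-fold). The endocytic receptor gene lrp1aa (at least 33.4-fold), the matricellular genes ccn1 (31.5-fold), thbs1b (26.7-fold) and thbs4b (16.4-fold), the prion-related gene prnprs3 (27.1-fold) and the adhesion molecule sdk2b (25.0-fold) had bounds of a like size or lower. Those that work on matrix were antxr2a, a collagen receptor (22.3-fold), sulf2b, an extracellular heparan sulfatase (20.3-fold), aebp1b, a collagen-binding protein (16.6-fold), pcolcea, which speeds procollagen processing (16.2-fold), and adam9a, a membrane metalloprotease (13.7-fold, the lowest bound). The tetraspan protein gene emp2 had a bound of 22.1-fold.

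Among S100 relatives, s100u (10.69 and 10.50) and s100v2 (10.60 and 10.61) were above every embryo array, whereas s100a1 had the reverse pattern with 0.51 and -0.81 in ZF4 and 10.04 to 11.09 in embryos. The CCN relatives measured, ccn2b (2.86 and 1.15) and ccn4b (3.12 and 1.43), were not well above background in ZF4. The thrombospondin relative thbs3a (6.29 and 6.40) lay within the embryo range (3.98 to 6.46). In the RefSeq gene table for assembly GRCz12tu, which names 68 of the 69 genes, s100a10b and s100w lie next to each other with 0 protein-coding genes between them. The genes phlda2 and igf2b, whose mammalian orthologs lie in a shared imprinted region, have 5 between them. No other pair of members lay within 10 genes.

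Signaling and transcription account for 15 members. The PH-domain gene phlda2 read 11.38 and 11.39 in ZF4 against 1.99 to 4.83 in embryos (median 4.21), at least 67.8-fold. The immediate early factor egr1 read 10.94 and 11.03 against -2.18 to 4.87 (median 0.11), at least 51.4-fold. The gene pdgfrl, for a protein that resembles the extracellular part of PDGF receptors, read 10.48 and 10.47 against -0.62 to 2.73 (median 0.51), at least 36.0-fold. On these probe sets of all 3 no embryo array was above background. A second egr1 probe set, described below, was above it on 2 embryo arrays. The insulin-like growth factor binding protein igfbp5b read 10.33 and 10.27 against 0.23 to 4.62 (median 4.22), at least 31.9-fold. The AP-1 subunit fosl1b read 10.17 and 10.22 against 0.09 to 4.50 (median 1.90), at least 29.8-fold, and the ligand pdgfab 9.96 and 10.01 against 0.01 to 3.77 (median 1.35), at least 25.7-fold.

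The other signaling members had bounds of 14.3-fold to 24.9-fold. They were the p53-binding protein gene ppp1r13ba, the AP-1 subunit fosl2, the growth factor igf2b, the RNA-binding protein gene pcbp4, the 14-3-3 gene ywhag2, the DNA repair enzyme gene parp3, the aryl hydrocarbon receptor ahr2, the bHLH factor atoh8 and notum1b, a secreted enzyme that inactivates Wnt ligands. Among AP-1 relatives, jun (11.32 and 11.10, embryos up to 7.23), junba (11.40 and 11.48, up to 8.53), junbb (11.23 and 11.24, up to 8.47) and atf3 (9.09 and 8.79, up to 7.36) were above every embryo array, and fosab (7.76 and 7.55, up to 9.46) was not. It exceeded ZF4 only on the second untreated (9.29) and the first RA-treated (9.46) 9 hpf array, and read at most 6.59 on the others. The other array of each group read 4.68 and 4.85. The highest embryo values of junba and junbb lay on the same 2 arrays, and the cause was not tested. A pair of paralogs split between the samples: igf2b read 9.79 and 9.60 in ZF4 and at most 4.49 in embryos, and igf2a read 4.42 and 4.35 in ZF4 and 5.97 to 7.82 in embryos. Of 8 other 14-3-3 genes, 7 were above background on all 12 embryo arrays.

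Enzymes and carriers of metabolism account for 10 members. The fatty acid desaturase gene fads2 read 11.13 and 11.01 in ZF4 against 2.30 to 5.44 in embryos (median 4.52), at least 54.1-fold. The cytochrome c oxidase subunit cox6b1 read 11.11 and 11.02 against 0.08 to 5.12 (median 4.15), at least 54.4-fold. The platelet-type phosphofructokinase gene pfkpa, for a pacing enzyme of glycolysis, read 11.02 and 11.03 against 3.58 to 4.99 (median 4.32), at least 52.8-fold. The sterol oxidase gene msmo1 read 10.88 and 10.81 against 0.91 to 4.25 (median 2.61), at least 46.7-fold. Cytoglobin (cygb1), a globin of fibroblasts and stellate cells in mammals, met the rule on both of its probe sets. They read 10.03 and 10.18 against -1.51 to 3.08 (median -0.01), and 9.997 and 10.09 against -2.45 to 0.68 (median -1.37), at least 27.9-fold and 26.7-fold. The gene tusc3, of the glycosylation machinery and magnesium transport, read 10.02 and 9.76 against 1.19 to 5.48 (median 4.55), at least 23.6-fold. The respiratory chain gene ndufa4b, the sulfotransferase sult1st1, lipoprotein lipase (lpla) and the dehydrogenase gene dhrs1 had bounds of 14.9-fold to 20.8-fold.

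Of 9 other genes of sterol and fatty acid synthesis, 6 were above every embryo array in ZF4, such as hmgcs1 (11.45 and 11.53, embryos up to 10.44), fdft1 (10.47 and 10.28, up to 7.96) and dhcr7 (10.37 and 10.35, up to 8.42). The desaturase gene scd was not well above background on either ZF4 array (5.24 and 4.13). Of 19 other glycolysis genes, 12 were above every embryo array. For neither count is there a share over all probe sets to set it against. Here too paralogs split: gapdhs read 12.34 and 12.31 in ZF4 and 5.54 to 6.64 in embryos, gapdh 5.39 and 5.87 in ZF4 and 10.80 to 12.42 in embryos. The aldolase gene aldoaa was bright in both, at 12.08 and 12.12 in ZF4 and 10.66 to 11.95 in embryos.

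The 2 ZF4 arrays differed little on the members. The median absolute difference between them was 0.08 over the 72 probe sets, as over the 2860 probe sets that reached 9 on both, and 45 of the 72 differed by less than 0.1. The widest difference was 0.58, for aebp1b. The second array was the lower one for 40 of the 72 and for 51.5% of the bright probe sets.

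In all, 6 member genes have 8 further probe sets that the rule did not take. On 7 of the 8 both ZF4 arrays were above background and above every embryo array. The exception was a ccn1 probe set with 4.26 and 5.67 in ZF4. These genes were chosen on the same contrast, and the share of all probe sets in that order was not counted. Nothing is therefore read from the 7. Another ccn1 probe set read 12.12 and 12.08 in ZF4 and 4.74 to 6.93 in embryos, where 9 of 12 arrays were above background. This probe set shows ccn1 in embryos too. Its embryo values were highest at 4 hpf (6.51 and 6.93 untreated, 6.67 and 6.67 with RA). At 9 hpf a second emp2 probe set read 6.06 and 5.24 in untreated and 6.07 and 5.92 in RA-treated embryos. A second atoh8 probe set read 5.25 and 5.86 in untreated and 6.38 and 5.98 in RA-treated embryos of that stage. At 4 and 6 hpf neither was above background on any array. The second egr1 probe set (8.88 and 8.77 in ZF4) was above background on 2 embryo arrays. They were the second untreated (6.18) and the first RA-treated (5.79) 9 hpf array, those on which fosab was high. On 4 of the 8 no embryo array was above background.

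Within embryos the members could be compared by stage and treatment, which the rule did not use, although it kept every embryo value at 5.8 or less. Of the 864 embryo values of the 72 probe sets, 55 (6.37%) were above background, and 49 probe sets were above it on 0 embryo arrays. The most were 5 arrays, for notum1b and prnprs3. By array, 0 to 10 of the 72 were above background. The lowest counts were those of RA-treated 4 hpf embryos (1 and 0, against 4 and 4 untreated), and the highest was that of the first untreated 6 hpf array (10, against 3 on the second). The medians of the control probe sets also differed between arrays, from 1.83 to 3.91, and their part in these counts was not tested.

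**Figure D3:**
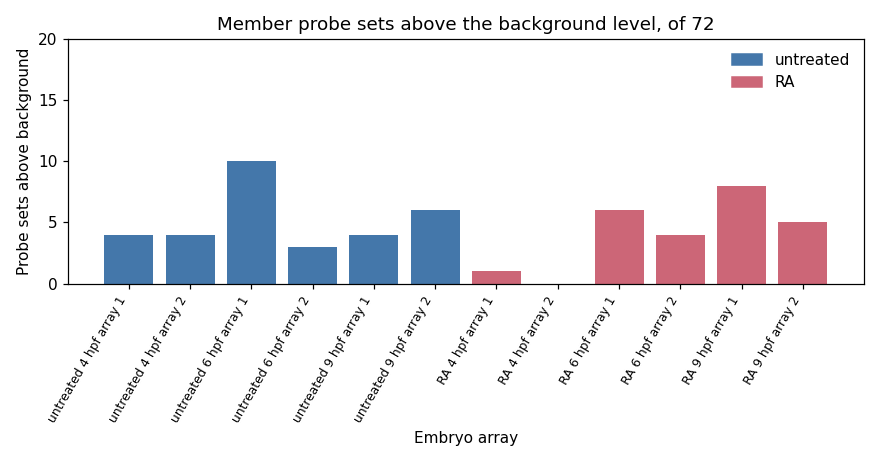
Bars give, for each of the 12 embryo arrays on the x axis, how many of the 72 member probe sets lay above the background level (y axis, count), untreated in blue and RA in red. The counts run from 0 to 10 and the 2 arrays of a group differ by up to 7.

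The rule held RA-treated arrays to its embryo limit too, so a gene that RA raised well above background could not be a member. For RA against untreated embryos, the counts of calls below were thereby limited in advance. No lack of response to RA is read from them. At 4 hpf 0 member probe sets passed the limma test, where 0.0194% of all probe sets passed as higher and 0.148% as lower. Of the 72, 12 had an unadjusted p under 0.05 (5.99% of all probe sets). In most of the 12 both groups were not well above background, so no excess is read from them or from such counts below. The median change of the members was -0.74, against -0.08 over all probe sets, and most of these values lie at background. Without the first RA array of that stage 3 passed. At 6 hpf 2 passed as higher and 0 as lower (0.31% and 0.0645% of all probe sets), with 7 at an unadjusted p under 0.05 (8.3% of all probe sets). For tagln the RA arrays read 5.31 and 4.54 and the untreated ones 1.56 and 1.66 (limma adjusted p = 0.0173), so 1 value stood barely above background. For ppp1r13ba both groups were not well above background (5.28 and 5.13 against 0.84 and 0.13, limma adjusted p = 0.00819), and no fold is given. The count was 0 without either RA-treated 6 hpf array or without the second untreated one, and 1 without the first untreated one. At 9 hpf 0 members passed, as did 0% of all probe sets in either direction by limma, and 2 members had an unadjusted p under 0.05 (2.83% of all probe sets). In the same limma fit the RA effect differed between 6 and 4 hpf for 0 members (0.0968% and 0.0194% of all probe sets, higher and lower), with 13 of 72 at an unadjusted p under 0.05 (5.96% of all probe sets). Between 9 and 6 hpf it differed for 0 members as well (0.00645% of all probe sets, higher), with 6 at an unadjusted p under 0.05 (3.97% of all probe sets).

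The embryo limit held at every stage as well, so the counts of calls between stages were also limited in advance. No steadiness between stages is read from them. Between stages of untreated embryos, 3 member probe sets passed as higher and 4 as lower at 6 against 4 hpf (19.8% and 21.5% of all probe sets). At 9 against 6 hpf 4 were higher and 0 lower (5.59% and 6.38%), and at 9 against 4 hpf 10 were higher and 4 lower (22.8% and 24.8%). Leaving out 1 array gave 1 to 2 calls at 9 against 6 hpf, with 1 when either second array was out, and 9 to 12 at 9 against 4 hpf, with 9 when either 9 hpf array was out. In 18 of the 27 calls of the 6 stage and treatment comparisons both groups were not well above background, and the highest value in any of them was 5.66. The clearest were tusc3, which read 5.45 and 5.48 at 4 hpf, 1.19 and 1.73 at 6 hpf and 4.41 and 5.0 at 9 hpf (6 against 4 hpf, limma adjusted p = 0.000161), and tmod4, with 3.03 and 2.02 at 4 hpf, 5.42 and 5.02 at 6 hpf and 5.43 and 5.25 at 9 hpf (9 against 4 hpf, limma adjusted p = 0.000593). All of these values lie around or below the background level.

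The pathways that the members belong to were followed in gene lists, with the members left out. In ZF4 against untreated 9 hpf embryos, the 72 member probe sets passed the limma test as higher, which the rule all but fixes and from which nothing is read. Over all probe sets 21.6% were higher and 23.8% lower in that contrast, and the list counts below are given beside those shares. The sets are not alike: a list gene was read on its probe set with the highest mean, whereas the shares include probe sets without a symbol. No size of an excess is therefore read from them. The contrasts of ZF4 with 4, 6 and 9 hpf share the ZF4 arrays, and 23.6% of all probe sets were higher in the contrast with 6 hpf, as in that with 4 hpf (24.9% and 27.5% lower). Against 9 hpf, both groups were at or below background in 1 lower call each of the actin, microtubule, growth factor and cytokine lists. The same held for 1 higher call of the microtubule list. Of 37 other genes of antigen presentation and interferon response, 17 were higher in ZF4 and 5 lower, with a median change of 1.12. Against 6 hpf the counts were 18 and 5, and against 4 hpf 18 and 6. The class I gene mhc1zba rose by 5.08 ± 0.38 (log2, SE; limma adjusted p = 1.05e-06) and b2m by 4.76 ± 0.43 (limma adjusted p = 4.35e-06). The ubiquitin-like interferon target isg15 was at least 65.3-fold higher (11.39 and 11.28 against 2.92 and 4.33, limma adjusted p = 9.81e-07). Lower were the protease gene ctss2.1, at least 31.4-fold (limma adjusted p = 0.00149), the tetraspanin cd9b by 1.73 ± 0.18 (limma adjusted p = 1.32e-05) and the chaperone gene calr, at least 2.34-fold (limma adjusted p = 0.00237).

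Of 56 other actin genes, 26 were higher and 8 lower, with a median change of 0.59. Against 6 hpf the counts were 24 and 9, and against 4 hpf 30 and 10. The LIM protein csrp1a rose by 4.19 ± 0.22 (11.53 and 11.54 against 7.36 and 7.33, limma adjusted p = 6.97e-08) and the calpain gene capn2a was at least 26.1-fold higher (limma adjusted p = 0.000132). The myosin light chain myl9b rose by 4.60 ± 1.59 (limma adjusted p = 0.0329), with 1 of its 9 hpf arrays above background, a call that was lost without either ZF4 array or without the second 9 hpf array. Lower were the cofilin gene cfl1l, at least 48.9-fold (2.93 and 1.35 in ZF4, 10.71 to 11.55 over the embryo arrays, limma adjusted p = 1.07e-08), profilin pfn1 by 3.67 ± 0.15 (limma adjusted p = 9.1e-09) and tagln3b, a relative of tagln, at least 4.23-fold (limma adjusted p = 0.000538). The other tagln relative measured, tagln2, was above every embryo array in ZF4 (11.56 and 11.52, embryos up to 11.32). Of 23 genes of microtubules, intermediate filaments and lamins, 4 were higher and 4 lower, with a median change of -0.16, whereas 10 were higher and 5 lower against 4 hpf (4 and 7 against 6 hpf). The tubulin tuba1b rose by 3.09 ± 0.21 (limma adjusted p = 5.17e-07) and tuba8l2, a relative of tuba8l3, fell by 2.90 ± 0.31 (limma adjusted p = 1.45e-05).

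**Figure D4:**
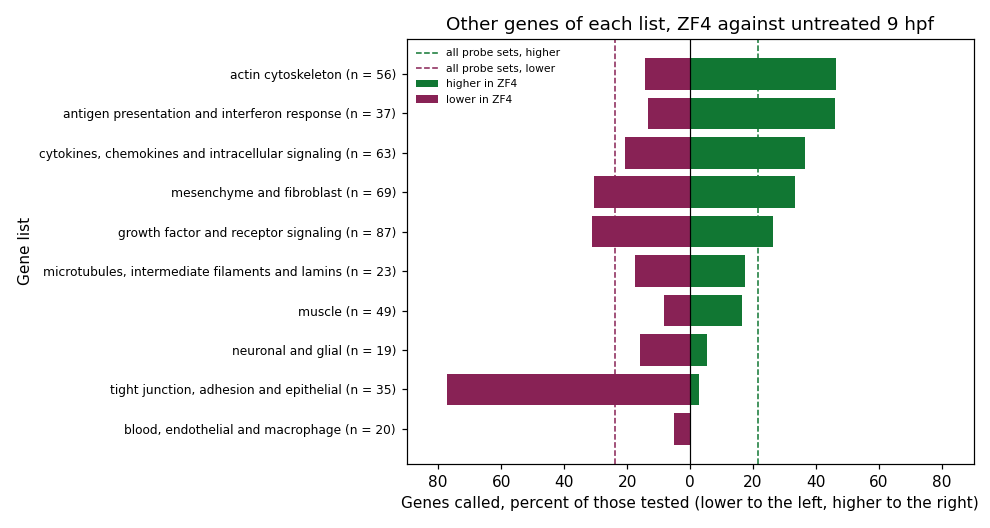
Percent of the other genes of each list that passed the limma test in ZF4 against untreated 9 hpf embryos (x axis), higher to the right in green and lower to the left in purple, with n the genes tested. Dashed lines give the same for all probe sets, 21.6% higher and 23.8% lower. These include probe sets without a symbol, whereas each list gene was read on its probe set with the highest mean.

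Of 69 other genes of mesenchyme and fibroblasts, 23 were higher and 21 lower, with a median change of 0.12. The split was less even at the earlier stages, with 27 higher and 15 lower against 6 hpf and 36 and 6 against 4 hpf (median change 1.59). The galectin lgals2a rose by 6.22 ± 0.29 (11.54 and 11.45 against 5.63 and 4.92, of which 1 was above background, limma adjusted p = 3.18e-08). The matrix protein sparc rose by 5.53 ± 0.69 (limma adjusted p = 4.58e-05) and the annexin anxa2a, whose product binds S100A10 in mammals, by 4.78 ± 0.64 (11.43 and 11.33 against 7.18 and 6.02, limma adjusted p = 7.97e-05). Lower were s100a1, at least 45.0-fold (limma adjusted p = 1.68e-09), midkine mdkb, at least 38.8-fold (limma adjusted p = 2.68e-06), and anxa1c, at least 34.6-fold (limma adjusted p = 2.51e-06).

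Of 87 other genes of growth factor and receptor signaling, 23 were higher and 27 lower, with a median change of -0.38. Against the earlier stages more were higher than lower, 28 and 24 against 6 hpf and 34 and 14 against 4 hpf (median change 0.84). The ligand of the EGF receptor hbegfa was at least 55.7-fold higher (11.04 and 11.16 against 1.96 and 1.97, limma adjusted p = 1.55e-06) and the guidance cue slit2 rose by 5.04 ± 0.66 (limma adjusted p = 7.22e-05). Embryonic patterning genes were among the lower: the Wnt antagonist sfrp1a, at least 39.7-fold (limma adjusted p = 4.46e-06), the Notch ligand dlc, at least 20.4-fold (limma adjusted p = 1.76e-05), and the BMP antagonist chrd by 5.16 ± 0.76 (limma adjusted p = 0.000162). Without the second ZF4 array the count of higher genes was 15. Of 63 other genes of cytokine, chemokine and intracellular signaling, 23 were higher and 13 lower, with a median change of 0.34. Against 6 hpf the counts were 21 and 12, and against 4 hpf 21 and 15. The feedback inhibitors socs3a, by 4.98 ± 0.43 (limma adjusted p = 2.95e-06), and socs3b, at least 14.9-fold (limma adjusted p = 3.48e-05), were higher, and the chemokine receptor cxcr4a was at least 36.4-fold lower (0.87 and 0.95 against 10.35 and 10.63, limma adjusted p = 4.27e-08).

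The list furthest in the other direction held no member. Of 35 genes of tight junctions, adhesion and epithelium, 1 was higher in ZF4 and 27 lower, with a median change of -5.06. Against 6 hpf 2 were higher and 26 lower, and against 4 hpf 6 and 17. The epithelial adhesion gene epcam was at least 63.1-fold lower (3.19 and 2.28 against 11.40 and 11.16, limma adjusted p = 8.7e-10), and krt5, a keratin of stratified epithelium, at least 104-fold (3.52 and 3.98 in ZF4, limma adjusted p = 3.95e-06). The exception that rose was the claudin cldni (9.12 and 8.76, at least 12.5-fold, limma adjusted p = 0.00139). The keratins of simple epithelia krt8 and krt18a.1, in contrast, stayed bright in ZF4 beside the member krt18b.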

How the data were processed

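The deposited values, on a log2 scale, were used as the authors made them: mas5 background correction and invariantset normalization through expresso, from affy in R (version 2.15.2 in the submitters' processing notes). How the probes of a set were summarised is not given in the sources used here. No header names the log base. It was inferred from the values, which ran from -5.303 to 13.9. For untreated embryos the study's methods mention only the 9 hpf stage on this platform, whereas the labels, which were used, give 3 stages. The study's present calls were not used here.

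Each array holds 15617 probe sets, of which 115 are controls. Symbols came from the platform annotation and reference gene tables: 10795 probe sets carry 1 symbol, 135 several and 4572 none. The background level is the 95th percentile of 17 tag control probe sets over 14 arrays (238 values). A group whose arrays were all at or below that level was raised to it, which gives a lower bound. Where both groups were, no fold is given. The number of arrays limits the precision.

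The tests used limma 3.58.1 (R 4.3.3), fitted as group means over all 14 arrays with empirical Bayes moderation and an intensity trend, two-sided, with Benjamini-Hochberg adjustment over 15502 probe sets and a threshold of 0.05. The fit was tested on simulated data. A list gene was represented by its probe set with the highest mean, and lists were counted, not tested. Members and lists were chosen with earlier results of these data known, and relatives after the members. Values are given for up to 6 members of each role with the highest ZF4 means, for the 5 genes next to either limit (1 of them is not reported here), and for up to 3 list genes per direction that passed the test with non-overlapping groups and had the largest changes. No sequences were used.

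Alternatives were no trend, only the arrays compared, quantile normalization, a common median, log2(value + 32), a mean of at least 6, a replicate block, leaving out each array, and other limits of the rule. Same-numbered arrays mostly did not deviate together (correlations of -0.38 to 0.27 over 21 pairs of groups, 2 of them over 0.1), so the numbers were not taken as pairs. The correlations largest in size were those of untreated with RA-treated embryos of the same stage, 0.27 at 4 hpf and -0.38 at 9 hpf. A link between those arrays is therefore possible, and the labels give none.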

Additional observations from a re-analysis of the deposited data

How the results depend on the processing

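With limits of 8.5 and 6.3 in place of 9 and 5.8 the rule gave 116 probe sets, which include the 72, and with 9.5 and 5.3 it gave 36, all among the 72. Quantile normalization gave 75, a common median 70, and leaving out each array 72 to 75. Only 1 of the 72 had a mean of at least 6 over the arrays, so at most 1 member could be called under that filter. With that filter, which leaves fewer probe sets, 0 members were called at 6 hpf with RA and 0 between any stages, and the counts of other genes higher in ZF4 than at 9 hpf were 11 for antigen presentation, 9 for growth factors, 14 for mesenchyme, 2 for microtubules and 1 for muscle. With RA at 6 hpf 1 member was called on log2(value + 32). With only the arrays compared the member counts were 0 with RA at 6 hpf, 0 at 9 against 6 hpf and 9 at 9 against 4 hpf. Apart from the members lost to the filter, the cause of these shifts was not tested.

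Leaving out 1 array moved the member calls to 0 to 3 with RA at 4 hpf (3 without the first RA array), 0 to 1 with RA at 6 hpf, 1 to 2 at 9 against 6 hpf and 9 to 12 at 9 against 4 hpf. Genes higher in ZF4 than at 9 hpf were then 15 to 21 for growth factors (15 without the second ZF4 array) and 3 to 6 for muscle (3 and 4 without the first and second ZF4 array, 5 without the first untreated 9 hpf array). A lone array is assumed to vary like the other groups.

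With the replicate number as a block, 6978 probe sets were called in ZF4 against untreated 9 hpf, in place of 7036, and 12 members in place of 14 at 9 against 4 hpf. The block moved no count of calls reported by over 1.5 times, apart from the neuronal list, where 0 genes were higher in place of 1. Same-numbered arrays at 9 hpf deviated in opposite directions (-0.38). A crossed pairing, chosen after seeing the data, gave 0 member calls with RA there. Of the 49 list genes that the naming rule gives, not all of them printed, 43 kept direction and call under every alternative run, and 0 reversed. The calls lost were those of myl9b, desma, tuba8l4, mef2ca, mef2d and neurog1. Most embryo values of the members lie at background, where the arrays cannot order them.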
